A study of Mus musculus with 4 samples.

Results

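The 10 genes described here belong to the HIF pathway and the response to low oxygen. They were chosen by symbol, as Hif1a, Egln1, Egln3, Vhl, Bnip3, Vegfa, P4ha1, Ankrd37, Ndrg1 and Ddit4, and all 10 were found among the 54752 genes that the count files list. These genes and the lists below were chosen with earlier results of these data known. Their shares beside those of all genes are therefore descriptions and no independent support. The RNA came from 2 WT and 2 Mek1/2-tKO cultures of T cells that were taken naïve from the mouse spleen (CD4+) and grown for 3 days toward T follicular helper (Tfh) cells, that is, stimulated through CD3 and CD28 with IL-6 while TGF-β, IL-4, IFN-γ and IL-2 were blocked by antibodies. Living cells were sorted again before RNA was extracted. Mek1/2-tKO cells carried Cd4-Cre and floxed alleles of both Map2k1 and Map2k2 (Map2k2 fl/fl, Map2k1 fl/fl, Cd4-Cre+), so that Cre was driven by the Cd4 promoter and was not restricted to mature CD4+ T cells, and the WT cultures are labelled by genotype alone. Neither the age of the mice nor whether the cultures of a genotype came from separate mice is given in the sources used here, so that the p-values below measure only the spread between these cultures. The WT libraries held 18858860 and 18807774 counts and the Mek1/2-tKO libraries 16330802 and 18931090.

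HIF is a transcription factor made of an alpha subunit, such as Hif1a or Epas1, and the beta subunit Arnt. When oxygen is present, the prolyl hydroxylases of the Egln family modify the alpha subunit, which is then bound by Vhl and its ubiquitin ligase complex and degraded. When oxygen is low, or when growth signals raise the amount of Hif1a, as happens in activated T cells, HIF binds the hypoxia response element and switches on genes for glycolysis, angiogenesis, mitophagy and collagen modification, and also Egln3 and Egln1, which act back on HIF. The 10 genes cover these roles, with Hif1a as the subunit, Egln1, Egln3 and Vhl as the sensing arm and Bnip3, Vegfa, P4ha1, Ankrd37, Ndrg1 and Ddit4 as targets.

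The promoter sequences are shown first because the core of the hypoxia response element is a short run of letters that can be read in them. RefSeq (GRCm38.p6) gave a window of 300 bases, from 250 bases before the start site to 50 bases after it, for 9 of the 10 genes (not for Ndrg1). The letters searched on both strands were ACGTG and GCGTG, and capitals mark them or their reverse complements CACGT and CACGC in the bases before the start site, written 5′ to 3′ on the strand of the gene. The stretches of Egln3 (chr12:54203875-54204124, minus strand), Vegfa (chr17:46032378-46032627, minus strand) and Bnip3 (chr7:138909520-138909756, minus strand) are shown because these genes had the largest fold changes among the 10. Those of P4ha1 (chr10:59323046-59323295, plus strand) and Hif1a (chr12:73907617-73907866, plus strand) are shown as a target and as the HIF subunit itself. The Hif1a stretch lies inside the gene model used for counting, which begins farther upstream, at 73901375. The window of Ankrd37, which is not printed, also lies inside its gene model.
Egln3: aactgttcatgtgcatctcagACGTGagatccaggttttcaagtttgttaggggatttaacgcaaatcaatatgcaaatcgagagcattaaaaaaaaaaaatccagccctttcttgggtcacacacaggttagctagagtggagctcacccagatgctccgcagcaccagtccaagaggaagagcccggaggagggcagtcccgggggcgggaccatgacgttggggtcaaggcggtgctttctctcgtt
Vegfa: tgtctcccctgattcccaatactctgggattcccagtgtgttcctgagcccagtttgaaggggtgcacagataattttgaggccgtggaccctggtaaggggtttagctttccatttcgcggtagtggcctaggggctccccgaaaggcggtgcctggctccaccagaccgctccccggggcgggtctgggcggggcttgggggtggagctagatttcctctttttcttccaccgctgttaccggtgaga
Bnip3: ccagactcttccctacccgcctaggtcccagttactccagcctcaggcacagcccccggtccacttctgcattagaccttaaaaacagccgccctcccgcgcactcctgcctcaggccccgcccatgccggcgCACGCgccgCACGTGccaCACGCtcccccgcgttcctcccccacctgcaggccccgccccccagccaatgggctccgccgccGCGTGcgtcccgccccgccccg
P4ha1: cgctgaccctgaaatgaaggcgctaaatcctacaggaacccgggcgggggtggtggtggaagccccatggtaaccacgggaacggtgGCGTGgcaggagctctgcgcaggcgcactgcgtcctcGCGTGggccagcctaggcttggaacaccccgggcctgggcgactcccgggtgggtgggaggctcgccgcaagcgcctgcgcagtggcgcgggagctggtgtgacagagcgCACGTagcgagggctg
Hif1a: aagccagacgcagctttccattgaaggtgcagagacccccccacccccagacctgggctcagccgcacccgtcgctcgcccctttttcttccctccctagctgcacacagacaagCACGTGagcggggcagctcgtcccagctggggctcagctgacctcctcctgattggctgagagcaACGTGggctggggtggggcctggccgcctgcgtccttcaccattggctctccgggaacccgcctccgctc

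In the first window of each gene, ACGTG was found in 7 of 9 genes, all but Vhl and Vegfa, against 19.6% of all 32851 RefSeq mouse windows of this length. These windows are rich in G and C, and ACGTG was found in 25.0% of the 15291 windows with at least 54% G and C. This floor lies just under the lowest of the 9 genes, Egln3 with 54.7%. The others ran from 62.0% (Vegfa) to 86.0% (Egln1), so that this background is not matched to them. GCGTG was found in 5 of 9 genes, against 32.4% of all windows and 51.7% of those rich in G and C, which is near the share of the 9 genes. Either run was found in 7 of 9 genes, against 43.8% and 62.5%. The run CACGTG, which reads as ACGTG on both strands and is also the E-box of other transcription factors, was present in Bnip3 and Hif1a and in 7.15% of all windows. Vegfa has a second RefSeq window (chr17:46025114-46025413, minus strand), which holds ACGTG at 1 site and GCGTG at 1 site and is not part of these counts, nor is it printed, since it overlaps Vegfa exons. In Egln3 the letters began 229 bases before the start site. In Hif1a they began 134 and 70 bases before it on the strand of the gene. These matches describe the letters in a short window and show no binding.

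The labels were checked before the 10 genes were read. Map2k1, which encodes MEK1, had 182 and 187 CPM (counts scaled to the size of each library by edgeR's TMM method) in WT against 98.0 and 105 in Mek1/2-tKO, a log2 fold change of -0.86 (standard error, SE, of 0.08, edgeR adjusted p = 1.29e-06). Every adjusted p below, unless DESeq2 is named, comes from edgeR's quasi-likelihood fit over all genes, adjusted by Benjamini-Hochberg. Map2k2, which encodes MEK2, had 155 and 165 CPM in WT against 172 and 182 in Mek1/2-tKO, and its log2 fold change of 0.15 did not pass (SE 0.08, edgeR adjusted p = 0.126). A count over a whole gene cannot tell a transcript that lacks the floxed exons from a complete one.

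Markers of other cell types differed between the genotypes in the same libraries. Cd4 itself had 297 and 289 CPM in WT against 18.8 and 25.1 in Mek1/2-tKO. Of the T-cell receptor complex, Cd3e had 91.8 and 91.7 CPM in WT against 43.9 and 44.1 in Mek1/2-tKO, and Cd3d had 171 and 186 CPM in WT against 227 and 184 in Mek1/2-tKO, which overlapped. T-cell genes were thus present in every library, though most were lower in Mek1/2-tKO. Of 14 T-cell identity genes, 9 were lower and 1, Thy1, was higher in Mek1/2-tKO. Over all genes tested, 16.4% were lower and 19.3% were higher, which is the background for each marker list here. The summed level of the T-cell genes was 3749 and 3844 CPM in WT against 2799 and 2692 in Mek1/2-tKO. Thy1 added the most CPM to this sum in every library, without regard to gene length. In Mek1/2-tKO, 15 of 15 B-lineage markers were higher. Their sum was 1340 and 1314 CPM in WT against 7277 and 7241 in Mek1/2-tKO, with Ighm as the most abundant. All 10 of 10 NK-cell markers were higher, summing to 130 and 134 CPM in WT against 892 and 811 in Mek1/2-tKO, led by Nkg7. In Mek1/2-tKO replicate 1, Nkg7, Prf1 and Gzma held 436, 197 and 102 CPM of this sum. Which cells held this RNA was not tested, and the sum is no measure of NK cells. All 5 of the 6 gamma-delta T-cell markers that could be tested were higher too (6.98 and 4.36 CPM against 184 and 165). So were all 6 of the 9 myeloid markers that could be tested (60.4 and 51.7 CPM against 246 and 260). Mpeg1 alone held 55.9 and 47.0 CPM of this sum in WT and 220 and 239 CPM in Mek1/2-tKO, so that the sum is nearly that of 1 gene. The myeloid gene Adgre1 had 0 counts in both WT libraries and 66 and 83 counts in Mek1/2-tKO, and the defining genes Csf1r and Csf3r had at most 36 counts in any library. Itgam, with at most 8 counts, shares 68.7% of its exon bases with Gm49368 on the same strand, so that its reads may not have been counted. Mitochondrial genes took 1.62 and 1.56% of the counts in WT and 2.24 and 1.99% in Mek1/2-tKO. The part of these differences in the results below was not tested. In RNA of a whole culture, fewer cells that express a gene and less RNA of it per cell cannot be told apart.

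Most of the HIF pathway and hypoxia response genes had less RNA in Mek1/2-tKO cultures. Of the 10 genes, 9 passed both thresholds in the lower direction (adjusted p under 0.05 and fold change of at least 1.5 in edgeR's quasi-likelihood test) and 0 in the higher direction, beside the 16.4% of the 14330 genes tested that were lower and the 19.3% that were higher. All 10 passed the filter on low counts. Their median log2 fold change was -1.50, against 0.02 over all genes tested. Both Mek1/2-tKO libraries lay under both WT libraries for 10 of 10 genes and for 38.8% of all genes tested. The sum of the 10 genes was 1045 and 1039 CPM in WT against 319 and 316 in Mek1/2-tKO. The largest fold change was that of Egln3, at rank 49 of 14330 from the lowest log2 fold change, followed by Vegfa and Bnip3 at ranks 96 and 97, and Vhl, which did not pass, was at rank 3318.

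**Figure D1:**
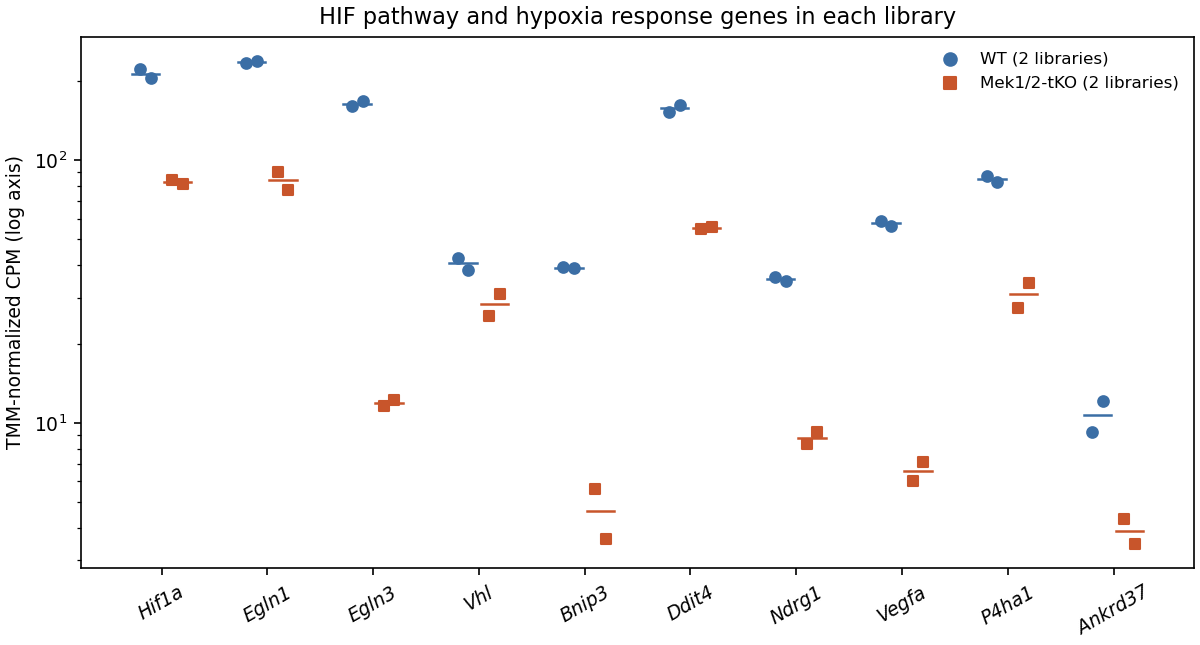
TMM-normalized CPM (log axis) of the 10 genes in each library, with circles for the 2 WT and squares for the 2 Mek1/2-tKO libraries and a line at the mean of each genotype. In all 10 genes the squares lie under the circles, with the widest distance for Egln3 (161 and 169 CPM against 11.6 and 12.2 CPM) and the narrowest for Vhl (42.6 and 38.4 CPM against 25.5 and 31.1 CPM).

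Hif1a (ENSMUSG00000021109.13, GRCm38 chromosome 12, 73901375 to 73947530, plus strand) encodes the oxygen-regulated subunit. It had 223 and 205 CPM in the WT libraries against 84.6 and 81.6 in the Mek1/2-tKO libraries. The genotypes did not overlap, and the distance between them was several times the spread within each. The level fell 2.58-fold, a log2 fold change of -1.37 (SE 0.08, edgeR adjusted p = 1.70e-08). Leaving out single libraries, the log2 fold change ranged from -1.43 to -1.31. Genes on the other strand share 5.597% of its exon bases, and the antisense gene Gm15283 had 26 and 27 counts in WT and 9 and 10 in Mek1/2-tKO, beside 4348 and 3954 counts of Hif1a in WT. The partners of Hif1a are taken up with the rest of the pathway below.

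Egln3 (ENSMUSG00000035105.5, chromosome 12, 54178981 to 54203860, minus strand) encodes the hydroxylase PHD3, a known HIF target that is strongly induced in low oxygen. It had 161 and 169 CPM in WT against 11.6 and 12.2 in Mek1/2-tKO, where 179 and 230 counts were left of 3130 and 3249. Replicates of each genotype were close, and the fall was 13.8-fold (log2 fold change -3.79, SE 0.11, edgeR adjusted p = 8.28e-12). Egln1 (ENSMUSG00000031987.6, chromosome 8, 124908587 to 124949324, minus strand), which encodes PHD2, the main oxygen sensor under ordinary oxygen, had 235 and 239 CPM in WT against 90.4 and 77.4 in Mek1/2-tKO. It fell 2.83-fold (log2 fold change -1.50, SE 0.09, edgeR adjusted p = 1.32e-08). The Mek1/2-tKO libraries were farther apart for Egln1 (83.9 ± 9.19 CPM, SD, n = 2) than the WT libraries (237 ± 2.84 CPM), and both lay far under WT.

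Egln2, which encodes PHD1 and is not known as a HIF target, is not one of the 10 genes and moved the other way. It had 55.9 and 59.5 CPM in WT against 97.5 and 102 in Mek1/2-tKO, and it was higher past both thresholds (log2 fold change 0.79, SE 0.09, edgeR adjusted p = 9.59e-06). Per length, as TPM (counts divided by exon length and scaled to a common total in each library), Egln1 had 127 and 128 TPM in WT and 34.5 and 33.0 TPM in Mek1/2-tKO. Egln3 had 117 and 122 TPM in WT and 5.96 and 7.06 TPM in Mek1/2-tKO. These levels were close to each other in WT and far apart in Mek1/2-tKO. Egln2 had 38.9 and 41.0 TPM in WT and 47.8 and 55.6 TPM in Mek1/2-tKO. The 3 hydroxylases together had 284 and 291 TPM in WT and 88.3 and 95.7 TPM in Mek1/2-tKO. The share of Egln2 in this sum was 13.7 and 14.1% in WT and 54.1 and 58.1% in Mek1/2-tKO, that of Egln3 was 41.4 and 41.9% against 6.75 and 7.37%, and that of Egln1 was 44.9 and 44.0% against 39.1 and 34.5%. The most abundant hydroxylase transcript was thus that of Egln1 in both WT libraries and that of Egln2 in both Mek1/2-tKO libraries.

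**Figure D2:**
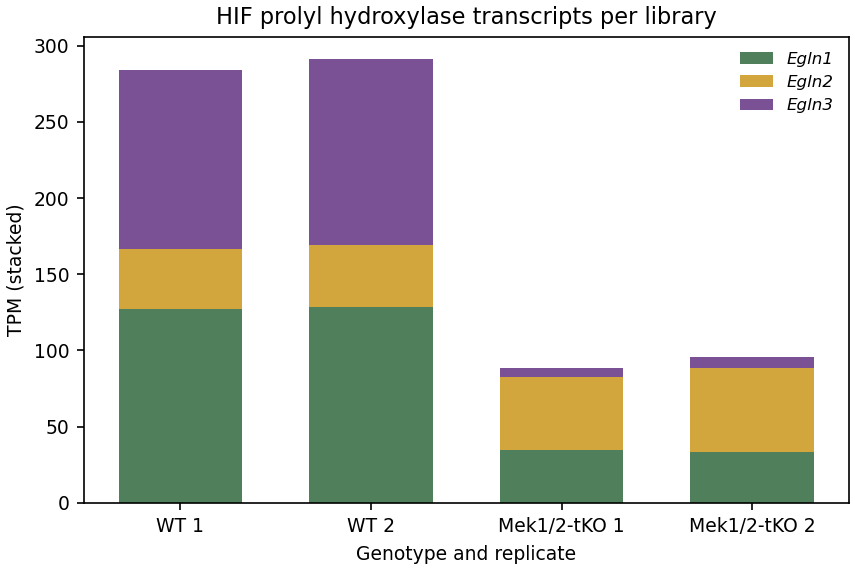
TPM of the HIF prolyl hydroxylases Egln1, Egln2 and Egln3, stacked for each of the 4 libraries. The sum falls from 284 and 291 TPM in WT to 88.3 and 95.7 TPM in Mek1/2-tKO, and Egln2 makes up more than Egln1 and Egln3 together in both Mek1/2-tKO libraries.

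Vhl (ENSMUSG00000033933.13, chromosome 6, 113623959 to 113631633, plus strand) encodes the part of the ubiquitin ligase that recognizes hydroxylated HIF. It had 42.6 and 38.4 CPM in WT against 25.5 and 31.1 in Mek1/2-tKO. The genotypes did not overlap, but the gap between the nearest libraries was not much wider than the distance between replicates. Its log2 fold change of -0.51, a ratio of 1.43, passed the threshold on the adjusted p and not the one on fold change (SE 0.13, edgeR adjusted p = 0.00412). Leaving out single libraries it ranged from -0.67 to -0.38, and without WT replicate 2 or without Mek1/2-tKO replicate 2 it passed both thresholds, at -0.59 and -0.67.

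Among the targets, Vegfa (ENSMUSG00000023951.17, chromosome 17, 46016993 to 46032369, minus strand) encodes the secreted factor that drives blood vessel growth. It had 58.9 and 56.4 CPM in WT against 6.01 and 7.14 in Mek1/2-tKO, with replicates of each genotype within a narrow range. The fall was 8.72-fold (log2 fold change -3.12, SE 0.14, edgeR adjusted p = 8.28e-10). Of the 10 VEGF ligands and receptors, 4 could be tested, and Vegfa was the only one of these 4 that passed, a share near the 16.4% of all genes that were lower. Vegfb, a ligand that is not known to respond to low oxygen, had 9.24 and 13.3 CPM in WT against 8.20 and 9.53 in Mek1/2-tKO, which overlapped (log2 fold change -0.34, edgeR adjusted p = 0.199), although it passed in the lower direction without WT replicate 1 (-0.59). The receptor genes Flt1, Kdr and Flt4 had at most 14 counts in any library and were not tested.

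Bnip3 (ENSMUSG00000078566.8, chromosome 7, 138890836 to 138909519, minus strand) encodes a mitochondrial receptor for mitophagy, the removal of mitochondria by autophagy. It had 39.3 and 38.8 CPM in WT against 5.62 and 3.62 in Mek1/2-tKO. The WT libraries were nearly equal, while 87 and 68 counts remained in the Mek1/2-tKO libraries and differed more from each other in proportion. The fall was 8.54-fold (log2 fold change -3.09, SE 0.19, edgeR adjusted p = 1.37e-08), and leaving out single libraries the log2 fold change ranged from -3.43 to -2.80. A gene on the other strand, Gm45507, shares 22.3% of its exon bases and had 0 counts in all 4 libraries. The related receptor Bnip3l had 76.3 and 77.3 CPM in WT against 38.2 and 26.7 in Mek1/2-tKO and was lower too (log2 fold change -1.25, SE 0.14, edgeR adjusted p = 5.81e-06). It has a pseudogene, Bnip3l-ps, and reads that map equally well to both would not be counted. Of the 16 mitophagy genes listed, 14 were tested, Bnip3 and Bnip3l were the 2 that were lower, and 6 were higher, of which Optn lost its call in DESeq2 (adjusted p = 0.141). Over all genes tested, 16.4% were lower, near the share of this list, and 19.3% were higher. Gabarap, which encodes an autophagosome protein, had 95.9 and 94.3 CPM in WT against 244 and 207 in Mek1/2-tKO (log2 fold change 1.24, SE 0.09). Pink1, the kinase that marks damaged mitochondria, had a log2 fold change of 1.12 (SE 0.14), and Map1lc3b one of 0.93 (SE 0.10). The receptors Fundc1 and Sqstm1 had log2 fold changes of 0.74 (SE 0.16) and 0.63 (SE 0.07), but Fundc1 lost its call without WT replicate 1 or Mek1/2-tKO replicate 1, and Sqstm1 with library size alone.

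P4ha1 (ENSMUSG00000019916.14, chromosome 10, 59323296 to 59373304, plus strand) encodes a catalytic subunit of the collagen prolyl hydroxylase, an enzyme that, like the Egln proteins, uses oxygen. It had 87.3 and 83.0 CPM in WT against 27.5 and 34.2 in Mek1/2-tKO, without overlap, and fell 2.75-fold (log2 fold change -1.46, SE 0.12, edgeR adjusted p = 2.42e-07). Its paralog P4ha2, also a HIF target, had 9.65 and 11.98 CPM in WT against 1.94 and 3.62 in Mek1/2-tKO (log2 fold change -1.94, SE 0.29, edgeR adjusted p = 7.34e-05). P4hb, the shared beta subunit, had 636 and 676 CPM in WT against 473 and 455 in Mek1/2-tKO, and its log2 fold change of -0.50 was under the threshold on fold change. P4ha3 had 0 counts in all 4 libraries. Of the 6 collagen hydroxylase genes tested, out of 7, P4ha1 and P4ha2 were the 2 that passed, both lower, as were 16.4% of all genes tested.

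Ndrg1 (ENSMUSG00000005125.13, chromosome 15, 66929318 to 66969640, minus strand) encodes a cytoplasmic protein named for its regulation by N-myc, and in T cells it is associated with anergy. It had 36.1 and 34.8 CPM in WT against 8.33 and 9.27 in Mek1/2-tKO, with close replicates, and fell 4.02-fold (log2 fold change -2.01, SE 0.15, edgeR adjusted p = 8.64e-08). Genes on the other strand share 8.43% of its exon bases and had 0 counts in every library. Its relative Ndrg2 was lower as well, with 24.8 and 28.6 CPM in WT against 4.13 and 3.51 in Mek1/2-tKO (log2 fold change -2.81, SE 0.19). Ndrg3 had 40.6 and 39.4 CPM in WT against 42.2 and 44.1 in Mek1/2-tKO and did not pass (log2 fold change 0.11, edgeR adjusted p = 0.411). Ndrg4 passed in the higher direction on few counts, 2 and 6 in WT and 20 and 26 in Mek1/2-tKO, and its call was lost without WT replicate 1 or Mek1/2-tKO replicate 2.

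Ddit4 (ENSMUSG00000020108.4, chromosome 10, 59949669 to 59951834, minus strand) encodes REDD1, an inhibitor of the growth kinase complex mTORC1 that responds to low oxygen and to other stresses. It had 152 and 163 CPM in WT against 55.0 and 56.0 in Mek1/2-tKO, and fell 2.84-fold (log2 fold change -1.51, SE 0.09, edgeR adjusted p = 1.09e-08). Among the 15 genes of mTORC1 and its inhibitors that could be tested, 7 were lower, Ddit4 among them, and 2 were higher, where 16.4% and 19.3% of all genes were. Both inhibitors such as Sesn2 (51.6 and 55.5 CPM against 19.96 and 17.3 CPM, log2 fold change -1.53, SE 0.12) and parts of the complex such as Rptor (36.1 and 41.1 CPM against 18.5 and 21.5 CPM, log2 fold change -0.95, SE 0.13) and Mtor (log2 fold change -0.88, SE 0.12) were lower. The inhibitor Sesn1 was higher, with 20.2 and 21.5 CPM in WT against 47.3 and 45.6 in Mek1/2-tKO (log2 fold change 1.16, SE 0.12). Ddit4 is also a target of the stress factor Atf4. Of 16 genes of the Atf4 response, 10 were lower and 0 were higher (16.4% and 19.3% over all genes), with a median log2 fold change of -0.88 against 0.02 over all genes, led among the well counted ones by Trib3 (49.6 and 57.6 CPM against 8.78 and 7.30 CPM, log2 fold change -2.74, SE 0.15). Atf4 itself had 681 and 678 CPM in WT against 648 and 575 in Mek1/2-tKO and did not pass (log2 fold change -0.15, edgeR adjusted p = 0.117).

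Ankrd37 (ENSMUSG00000050914.16, chromosome 8, 45996902 to 46005707, minus strand) encodes an ankyrin repeat protein of little known function that is a direct HIF target. It was the least counted of the 10 genes, with 9.24 and 12.1 CPM in WT against 4.33 and 3.46 in Mek1/2-tKO. The genotypes did not overlap, and the gene fell 2.75-fold (log2 fold change -1.46, SE 0.25, edgeR adjusted p = 2.05e-04). Its standard error was the largest of the 10, and leaving out single libraries the log2 fold change ranged from -1.65 to -1.25. Genes on the other strand share 26.4% of its exon bases, among them Ufsp2, with 747 and 771 counts in WT and 722 and 671 counts in Mek1/2-tKO beside 180, 234, 67 and 65 counts of Ankrd37. Whether the counting used the strand is not given in the sources used here, and the value of Ankrd37 is uncertain to that extent.

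Levels of the 10 genes were compared with each other only per length. In WT, Ddit4 was the most abundant of the 10 with 174 ± 7.08 TPM (SD, n = 2), followed by Egln1 with 128 ± 0.629 TPM, Egln3 with 120 ± 3.21 TPM and Hif1a with 70.3 ± 4.69 TPM. P4ha1 had 40.1 ± 1.73 TPM, Bnip3 33.4 ± 0.515 TPM, Vhl 26.2 ± 2.13 TPM and Vegfa 26.05 ± 0.977 TPM, and Ankrd37 and Ndrg1 were lowest with 13.4 ± 2.49 and 10.4 ± 0.349 TPM. The libraries of Vhl and Vegfa overlapped and could not be ordered. In Mek1/2-tKO, Ddit4 with 45.98 ± 4.196 TPM and Egln1 with 33.8 ± 1.05 TPM were again first, followed by Hif1a with 20.5 ± 1.10 TPM. Vhl with 13.8 ± 2.99 TPM and P4ha1 with 10.97 ± 2.54 TPM came next and overlapped, whereas in WT the libraries of Vhl lay under those of P4ha1. Egln3 moved from the third place to the sixth with 6.51 ± 0.776 TPM. Ankrd37 had 3.65 ± 0.289 TPM, and Bnip3 with 2.93 ± 0.673 TPM, Vegfa with 2.24 ± 0.446 TPM and Ndrg1 with 1.94 ± 0.298 TPM came last, each overlapping with the next. TPM values depend on the total of each library over gene length, so that fold changes are given on the CPM scale only.

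The rest of the HIF machinery was read next. Of 17 genes for subunits, sensors, the ligase and coactivators, which include Hif1a, Egln1, Egln3 and Vhl, 16 were tested, 7 were lower and 3 were higher. With these 4 left out, 12 were tested, 4 were lower and 3 were higher, with a median log2 fold change of -0.32, where 16.4% and 19.3% of all genes tested were lower and higher, and nothing particular to the machinery is read from these small counts. Arnt, the partner of Hif1a, had 49.1 and 47.4 CPM in WT against 28.9 and 32.9 in Mek1/2-tKO (log2 fold change -0.64, SE 0.11, edgeR adjusted p = 3.44e-04), a call that was lost without Mek1/2-tKO replicate 1 (-0.55). Epas1, the other well known alpha subunit, was rare, with 49 and 79 counts in WT and 0 and 6 counts in Mek1/2-tKO, and was lower (log2 fold change -4.21, SE 0.73), with a size that rests on the 6 counts of Mek1/2-tKO replicate 2. Hif3a had 16 and 19 counts in WT and 4 and 0 counts in Mek1/2-tKO, and its call was lost in DESeq2 (adjusted p = 0.102) and when either WT library or Mek1/2-tKO replicate 2 was left out. Per length, Hif1a had 73.7 and 67.0 TPM in WT, where Epas1 had 0.876 and 1.41 TPM and Arnt 11.9 and 11.4 TPM.

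Of the partners of Vhl in the ligase, Cul2, the scaffold, was lower, with 97.5 and 84.9 CPM in WT against 51.8 and 55.2 in Mek1/2-tKO (log2 fold change -0.77, SE 0.10). The adaptors Elob and Eloc were higher, with log2 fold changes of 0.62 (SE 0.10) and 0.59 (SE 0.10), just over the threshold on fold change, and both calls were lost when libraries were scaled by their size alone (0.53 and 0.50) and without WT replicate 1 or Mek1/2-tKO replicate 1. That of Eloc was also lost in DESeq2 and with no filter (0.58 and 0.57). The ring protein Rbx1 had a log2 fold change of 0.37 (SE 0.11) and did not pass. Hif1an, the asparagine hydroxylase that limits HIF activity, had 42.0 and 44.9 CPM in WT against 33.5 and 38.2 in Mek1/2-tKO and did not pass (log2 fold change -0.28, edgeR adjusted p = 0.0578). The coactivators Ep300 and Crebbp and the inhibitor Cited2 had log2 fold changes of -0.51 (SE 0.13), -0.27 (SE 0.16) and -0.37 (SE 0.11), and none of these 3 passed. Arnt2 had 6 counts in WT replicate 1 and 0 in the other libraries and was not tested.

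**Figure D3:**
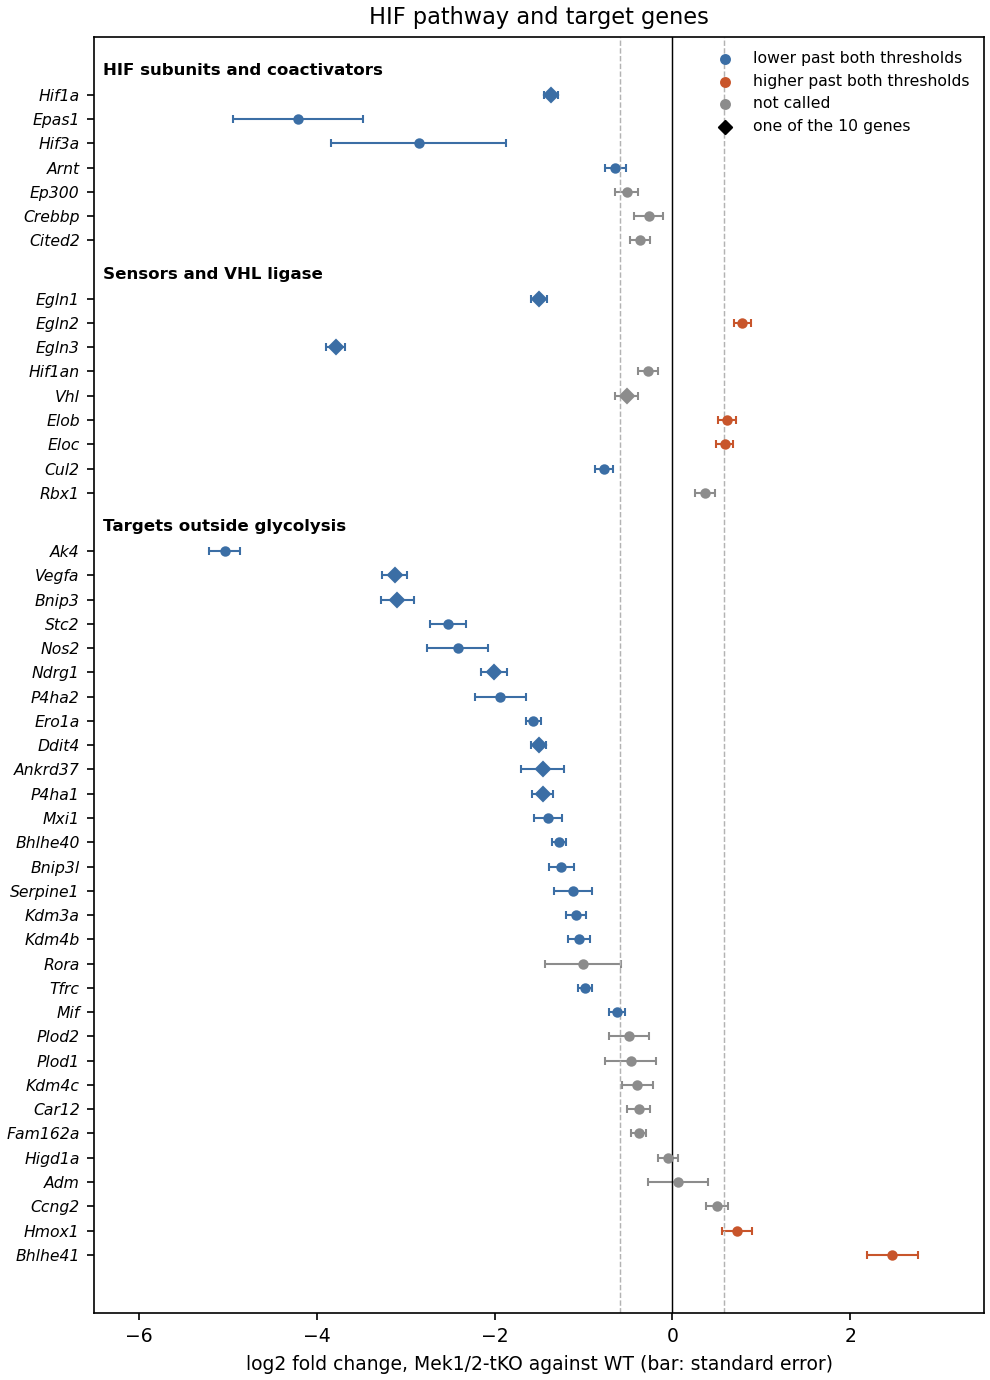
Log2 fold change (Mek1/2-tKO against WT, bars for the standard error) of the HIF subunits and coactivators, the sensors and the ligase, and the HIF targets outside glycolysis, with diamonds for the 10 genes, dashed lines at a fold change of 1.5 and colours for the call. The targets lie mostly to the left of 0, from Ak4 at -5.03, while Egln2 at 0.79 lies to the right, and Egln1, Egln3 and Cited2, which are also HIF targets, are drawn in the upper groups.

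The other known targets of HIF were read in the same way. Of 37 HIF targets outside glycolysis, 33 were tested, 21 were lower and 2 were higher, beside 16.4% lower and 19.3% higher over all genes tested. With the 8 of the 10 genes that are on this list left out, 25 were tested, 13 were lower and 2 were higher, with a median log2 fold change of -0.98 against 0.02 over all genes tested. Ak4, a mitochondrial adenylate kinase, had 71.2 and 74.0 CPM in WT against 1.68 and 2.66 in Mek1/2-tKO, a larger fall than any of the 10 genes (log2 fold change -5.03, SE 0.17, edgeR adjusted p = 6.27e-11). Reads that map equally well to Ak4 and to the pseudogene Ak3l2-ps would not be counted. Stc2, a secreted glycoprotein, had 23.6 and 22.5 CPM in WT against 3.17 and 4.74 in Mek1/2-tKO (log2 fold change -2.53, SE 0.21). Ero1a, listed as Ero1l and encoding an oxidase of protein folding, had a log2 fold change of -1.56 (SE 0.09), and Kdm3a, a histone demethylase, one of -1.09 (SE 0.11). Hmox1, which encodes heme oxygenase and also answers to oxidative stress, was higher, with 10.5 and 11.7 CPM in WT against 20.02 and 16.8 in Mek1/2-tKO (log2 fold change 0.73, SE 0.17, edgeR adjusted p = 0.00252). Bhlhe41 was the other target that was higher, with 1.69 and 1.82 CPM in WT against 8.20 and 11.3 in Mek1/2-tKO. The other 10 tested targets did not pass, and of these Higd1a, chosen after its values were seen, had 41.2 and 44.2 CPM in WT against 38.5 and 43.7 in Mek1/2-tKO, which overlapped.

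Of the 19 glycolytic HIF targets, all tested, 17 were lower and 0 were higher (16.4% and 19.3% over all genes), with a median log2 fold change of -1.21 against 0.02 over all genes. Slc16a3, the lactate exporter MCT4, had 341 and 357 CPM in WT against 24.5 and 24.4 in Mek1/2-tKO (log2 fold change -3.83, SE 0.09, edgeR adjusted p = 1.50e-12), a fall close in size to that of Egln3. The glucose transporters Slc2a3 and Slc2a1 had log2 fold changes of -2.47 (SE 0.09) and -1.55 (SE 0.08). Pdk1, which keeps pyruvate out of the mitochondria, had 189 and 183 CPM in WT against 47.5 and 38.5 in Mek1/2-tKO (log2 fold change -2.12, SE 0.10). The enzymes Pfkl, Hk1, Pgk1 and Ldha had log2 fold changes of -1.84, -1.70, -1.11 and -0.91 (SEs 0.08, 0.09, 0.09 and 0.08). Genes of glycolysis have many pseudogenes. Reads that map equally well to a gene and a pseudogene would not be counted, and the values are uncertain to that extent. Pfkfb3 and Pfkfb4, which encode enzymes that set the flow through glycolysis, were the 2 that did not pass, with log2 fold changes of -0.54 and 0.56.

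**Figure D4:**
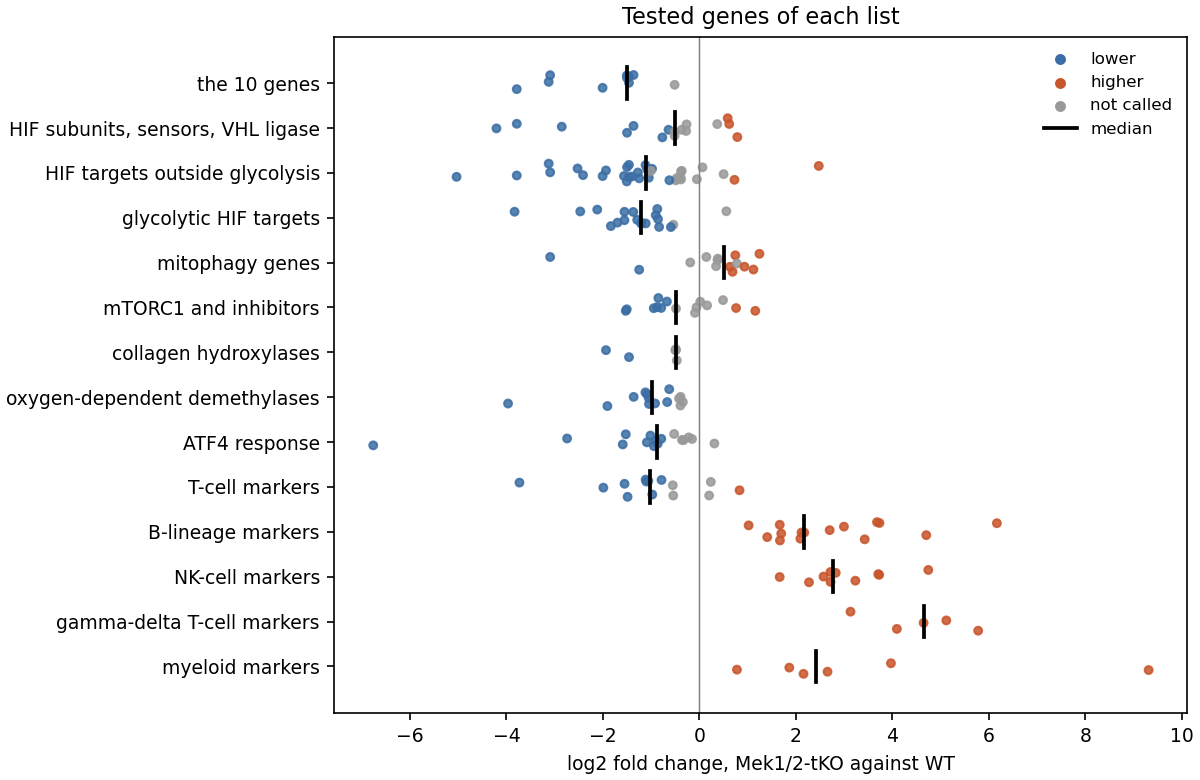
Log2 fold change (Mek1/2-tKO against WT) of each tested gene in 14 lists, with a black line at the median of each list and colours for the call. The 10 genes (median -1.50), the HIF targets outside glycolysis (median -1.12) and the glycolytic targets (median -1.21) lie mostly to the left of 0, mitophagy genes (median 0.51) mostly to the right, and all tested markers of B-lineage, NK, gamma-delta T and myeloid cells to the right. The rightmost myeloid point is Adgre1, which had 0 counts in both WT libraries, so that its place is set by the fit.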

How the data were processed

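RNA of 2 WT and 2 Mek1/2-tKO cultures was sequenced from stranded mRNA libraries. The authors trimmed reads with Trimmomatic 0.36, mapped them to GRCm38 (the mapper is written as STRA), counted uniquely mapped reads per gene with featureCounts (Subread 1.5.1) and deposited raw counts per gene without normalization; versions of Trimmomatic and Subread are those in the submitters' processing notes. The annotation release and strand setting are not given in the sources used here, and 54723 of 54752 genes were matched to a symbol.

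The counts were tested with edgeR 4.0.16 in R 4.3.3 on all 4 libraries (filterByExpr, TMM, robust quasi-likelihood fit, two-sided, Benjamini-Hochberg over 14330 genes). A call needed a fold change of at least 1.5 with an adjusted p under 0.05. Each SE was worked back from the test, as the absolute log2 fold change divided by the square root of the F statistic. It is approximate, above all for genes with few counts. TPM were computed from counts and exon length, and a gene at 0 may hold up to 3 counts, or 0.158 to 0.184 CPM before TMM, for counting error only. Where a symbol had more than 1 gene model, the more counted one was used. The script was tested on simulated data. The 10 genes and the lists were chosen with earlier results of these data known, and lists are described by counts and medians, with no test of a list. Genes given by name are the 10 genes, Map2k1, Map2k2, all genes of the HIF machinery, the 5 called genes of largest fold change in each direction of a list with an average log2 CPM that reached 3, from which the text takes those nearest to the 10 genes, and a short list of partners (Bnip3l, P4ha2, P4ha3, P4hb, Ndrg2, Ndrg3, Ndrg4, Ddit4l, Vegfb, Ak4, Ero1a, Kdm3a, Slc2a1, Pdk1, Ldha and Pgk1). Adgre1, Atf4, Bhlhe41, Cd3d, Cd3e, Csf1r, Csf3r, Flt1, Flt4, Higd1a, Itgam, Kdr, Optn, Pfkfb3 and Pfkfb4 fall outside this rule and were chosen after their values were seen, as were genes named only as the most abundant of a list or for shared bases or reads. The chi-square between replicates was 4.07 per gene for WT and 10.1 for Mek1/2-tKO, above sampling noise. As alternatives, edgeR's likelihood-ratio test, DESeq2 1.42.0, scaling by its size factors or by library size alone, other filters, a replicate block, other thresholds, a test against a fold change of 1.2 and leaving out each library were tried.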

Additional observations from a re-analysis of the deposited data

How the results depend on the processing

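Of 140 results for the 10 genes under 14 alternatives, 135 kept their direction and call and 0 changed sign. The other 5 were all those of Vhl, which then passed both thresholds: with library size alone (log2 fold change -0.60), without WT replicate 2 (-0.59), without Mek1/2-tKO replicate 2 (-0.67), with no threshold on fold change and with a test against a fold change of 1.2. The count of the 10 genes that were lower was 9 or 10 throughout. DESeq2 called 4571 genes, of which 4435 were among the 5123 called by edgeR. Library size alone moved the median of all genes from 0.02 to -0.07 and the share of calls that were higher from 54.03 to 45.6%. Same-numbered libraries had deviations from their genotype means that correlated at -0.00926, so that no shared shift was seen. This value cannot tell whether the cultures were paired by mouse or day, which the sources used here do not give. With a replicate block, 4952 genes were called, 4913 of them shared, and 9 of the 10 genes were lower.

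At a fold change of at least 2, 1040 genes were lower and 1725 higher, Map2k1 (-0.86) no longer passed, 0 genes of the HIF machinery and 1 HIF target outside glycolysis were higher, 2 mitophagy genes were higher, 2 mTORC1 genes were lower and 1 higher, and 6 Atf4 response genes were lower. With no threshold on fold change, 3903 genes were lower, and 4 collagen hydroxylases were lower, as with a test against a fold change of 1.2. Scaling by library size alone left 1 gene of the HIF machinery higher. Of VEGF genes, 1 was higher in DESeq2, and with no filter 2 were lower and 1 higher. With at least 10 counts in every library, 0 NDRG genes were higher. The causes of these changes in number were not tested. Leaving out single libraries, 1 to 3 genes of the HIF machinery were higher, with 1 without WT replicate 1 and 1 without Mek1/2-tKO replicate 1. VEGF genes that were lower numbered 1 to 2 and those that were higher 1 in every case, and their median log2 fold change ranged from -0.33 to 0.0147, which was above 0 without WT replicate 1. NDRG genes that were higher numbered 0 to 1 (0 without WT replicate 1 and without Mek1/2-tKO replicate 2), Atf4 response genes that were higher 0 to 1 (1 without WT replicate 1) and mTORC1 genes that were higher 1 to 2 (1 without Mek1/2-tKO replicate 2). With 2 libraries per genotype, a left-out library leaves a lone one that is assumed to vary like the other genotype, and lists with few tested genes, such as VEGF with 4, move by single genes.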

Other observations

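The Egln proteins belong to a larger group of enzymes that use oxygen and 2-oxoglutarate, and the histone and DNA demethylases of this group were read as a list. Of 14 such genes, 10 were lower and 0 were higher in Mek1/2-tKO, with a median log2 fold change of -0.98 against 0.02 over all genes tested, where 16.4% of genes were lower. Kdm5b, a demethylase of histone H3 lysine 4 and a known HIF target in other cells, had 44.5 and 40.5 CPM in WT against 10.9 and 11.7 in Mek1/2-tKO (log2 fold change -1.91, SE 0.14, edgeR adjusted p = 7.15e-08). Tet3 had 65.4 and 64.5 CPM in WT against 25.4 and 25.1 in Mek1/2-tKO (log2 fold change -1.36, SE 0.11), and Tet2 had a log2 fold change of -1.12 (SE 0.15). Kdm3a and Kdm4b, both HIF targets, had log2 fold changes of -1.09 and -1.05 (SEs 0.11 and 0.12).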
